A study of Homo sapiens with 2 samples.

Results

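The 10 genes described here encode beta-catenin (CTNNB1) and regulators of the Wnt pathway around it, and were chosen by name. They are CTNNB1, TCF7L2, APC, AXIN1, AXIN2, GSK3B, LRP5, LRP6, ZNRF3 and RNF43. Each matched 1 of the 10836 rows of the gene expression table. The study looked in HCT116 cells, a line established from a human colon carcinoma, for mRNAs bound by CNBP, a zinc finger protein that binds G-rich single-stranded nucleic acids. Ultraviolet light was used to crosslink the cells, which were then sonicated, RNA was recovered with a CNBP antibody (CNBP RIP), and this RNA and input RNA were each sequenced as 1 library. Both came from the same line, and no precipitate of a control antibody was analysed here. With 1 library on each side there is no spread between replicates, and differences are described by their size without a test. In such bulk RNA, fewer cells that express a gene and less of its RNA per cell cannot be told apart.

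In the canonical Wnt pathway, a destruction complex built on APC and axin binds beta-catenin, GSK3B and a casein kinase phosphorylate it, and the marked protein is degraded. Wnt ligands bind Frizzled receptors with the co-receptors LRP5 or LRP6 and stop this, so that beta-catenin builds up and enters the nucleus, where it activates genes with TCF factors. The ubiquitin ligases ZNRF3 and RNF43 remove Frizzled from the cell surface. AXIN2, ZNRF3 and RNF43 are themselves switched on by the pathway and act as feedback inhibitors. The pathway keeps stem cells of the intestinal crypt dividing and is activated in most colon cancers. HCT116 carries a mutant CTNNB1 allele that lacks a phosphorylation site needed for destruction. The deposited values are per gene and do not separate the alleles.

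The values are FPKM, that is, counts of sequenced fragments scaled to a kilobase of transcript and to 1000000 mapped fragments in the library, and so can be set side by side between genes. The read depth behind them is unknown, and with it the counting error. The FPKM of all rows summed to 109684 in the RIP and 214387 in the input, with medians of 2.78 and 1.95. Each row had at least 0.5 FPKM in at least 1 of the 2 libraries, as the table was deposited. In the input, the epithelial genes EPCAM (109 FPKM), KRT8 (433 FPKM) and KRT18 (564 FPKM) were abundant. Of 12 colon epithelial markers 8 were in the table, and VIL1, CDX1, LGALS4 and CEACAM5 were not. KRT19 (371 FPKM), ELF3 (10.3 FPKM) and CDX2 (4.68 FPKM) were also present in the input. KRT20 was at 0.728 FPKM and CDH1, which encodes E-cadherin, at 0.415 FPKM. Endothelial markers (4 genes) were not in the table. Of 6 fibroblast markers COL1A1 was in it (0.199 FPKM in the input, 4.92 in the RIP), and of 6 leukocyte markers CD68 (15.9 in the input, listed at 0 in the RIP). Both libraries came from the same cell line, and these marker values are given as levels, not as a measure of other cells.

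Recovery was expressed as a log2 ratio, log2(RIP FPKM + 1) less log2(input FPKM + 1). All 10 Wnt regulators were higher in the RIP than in the input, by at least 1.5-fold (a log2 ratio of 0.58). Of all rows, 42.6% were. A total of 8 were at least 4-fold higher (a log2 ratio of 2, the size the study used), beside 12.5% of all rows. The other two were GSK3B and ZNRF3. Not 1 of the 10 was lower by 1.5-fold, beside 34.7% of all rows. The median ratio of the 10 was 2.38, and the median of all rows was 0.28.

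The deposited filter bears on these counts. A row with under 0.5 FPKM in the input must have at least 0.5 in the RIP to be listed, and so had to be higher there. APC, LRP6, RNF43, AXIN2 and TCF7L2, which makes 5 of the 10, are such rows. Of all 2392 rows with an input below 0.5 FPKM, 21.4% exceeded the input 4-fold or more, and 85.1% exceeded it 1.5-fold or more. For CTNNB1, LRP5, AXIN1, GSK3B and ZNRF3 the input was at or above 0.5 FPKM, and they could have been lower in the RIP. Among the 8444 rows of that kind, 9.94% reached 4-fold, as did CTNNB1, LRP5 and AXIN1, and 30.6% reached 1.5-fold, as did all 5.

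**Figure D1:**
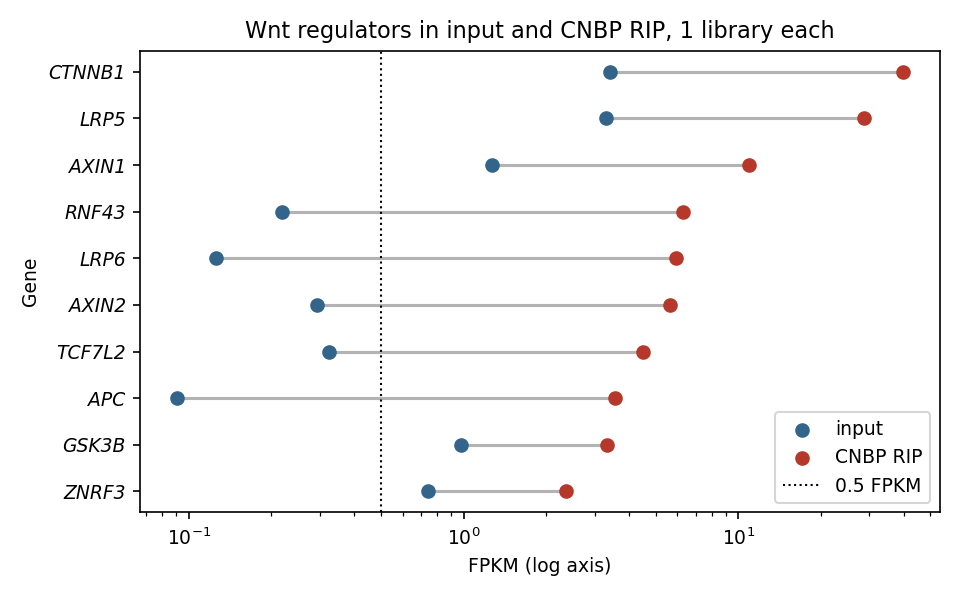
FPKM of the 10 Wnt regulators (log axis) in the input and in the CNBP RIP, 1 library each, ordered by the level in the RIP, with a dotted line at 0.5 FPKM. Every gene is higher in the RIP, from ZNRF3 (0.743 to 2.37 FPKM) to CTNNB1 (3.42 to 39.9 FPKM), and 5 input values lie left of the line.

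Beta-catenin mRNA had the highest FPKM of the 10 in both libraries, in the input just above LRP5. CTNNB1 (ENSG00000168036.16_2, chromosome 3, 41236328 to 41301587 on hg19, plus strand) had 3.42 FPKM in the input and 39.9 in the precipitate. Its log2 ratio was 3.21, or 9.24-fold on the FPKM plus 1 scale and 11.6-fold in FPKM. This placed CTNNB1 at percentile 96.3 of the 8509 genes whose FPKM averaged 1 or more over the libraries, of which 312, CTNNB1 included, had a ratio at least as high. Its level in the RIP stood at percentile 95.1 of all rows and its level in the input at percentile 60.3. For comparison, CCND1, the cyclin D1 mRNA that the study followed as a CNBP target, had a ratio of 2.12 at percentile 86.1.

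The genes nearest to CTNNB1 in both levels were found by Euclidean distance over log2(FPKM + 1) of the 2 libraries. They were SMARCA4 (39.7 FPKM in the RIP, 3.54 in the input, distance 0.038), an ATPase of chromatin remodelling complexes, USP19 (39.0 and 3.54, distance 0.050), a deubiquitinase, and CLTC (41.2 and 3.33, distance 0.056), the clathrin heavy chain. With 2 libraries such likeness describes a pair of levels and no more.

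TCF7L2, the TCF factor that binds DNA for beta-catenin in the intestine (ENSG00000148737.16_2, chromosome 10, 114710009 to 114927437), was much scarcer. It had 0.325 FPKM in the input and 4.50 after CNBP precipitation, a log2 ratio of 2.05 at percentile 85.0. This lay just inside the 4-fold rule. In FPKM without the added 1 the ratio was 13.8-fold, above the 11.6-fold of CTNNB1.

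**Figure D2:**
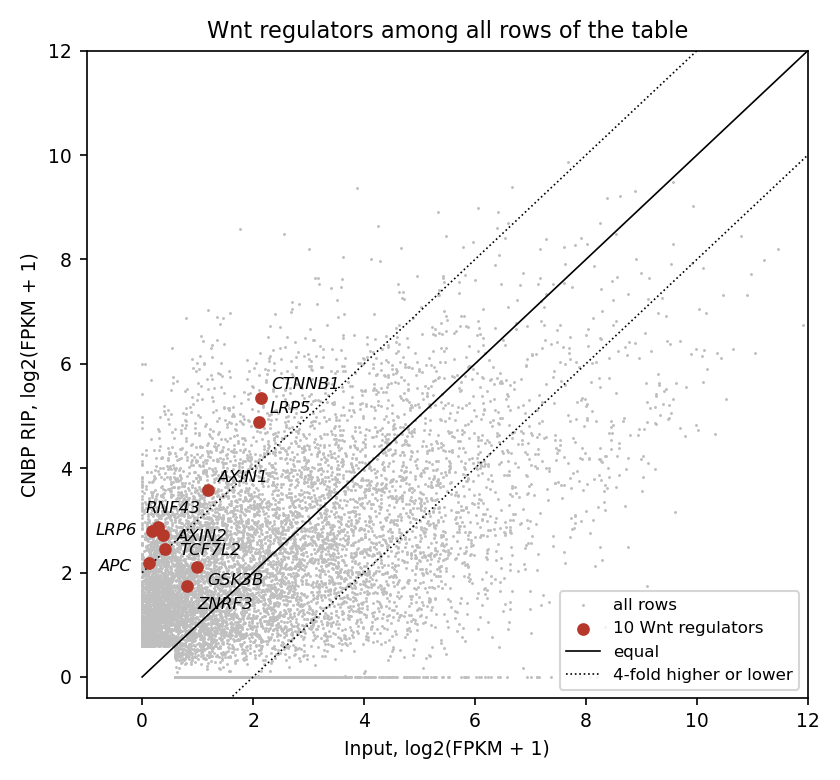
Each grey point is 1 of the 10836 rows of the table, by log2(FPKM + 1) in the input and in the CNBP RIP, with lines for equal levels and for 4-fold differences. The 10 Wnt regulators (red) lie above the line of equal levels, GSK3B and ZNRF3 below the upper 4-fold line, and the empty corner at the lower left is the deposited filter at 0.5 FPKM.

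The destruction complex is represented by the scaffold genes AXIN1, AXIN2 and APC and the kinase gene GSK3B. AXIN1 (ENSG00000103126.14_1, chromosome 16, 337440 to 402673), which encodes the limiting scaffold, had 1.27 FPKM in the input and 10.9 in the precipitate. Its ratio was 2.39, at percentile 89.6. AXIN2 (ENSG00000168646.12_2, chromosome 17, 63524681 to 63557765), the feedback-induced paralog, had 0.293 FPKM in the input and 5.63 after CNBP precipitation, a ratio of 2.36 at percentile 89.2. The axin mRNAs thus had ratios 0.03 apart, although AXIN1 stood at 4.34 times the level of AXIN2 in the input and at 1.94 times in the RIP. In FPKM without the added 1 they were 2.24-fold apart, with AXIN2 (19.2-fold) above AXIN1 (8.60-fold). Without a spread, neighbours this close in ratio have no order.

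APC, the tumour suppressor gene that is most often mutated in colon cancer (ENSG00000134982.16_2, chromosome 5, 112043195 to 112181936), was the lowest of the 10 in the input, at 0.0904 FPKM. In the RIP it had 3.57 FPKM. The ratio was 2.07 (percentile 85.2) with the added 1 and 39.5-fold in FPKM. GSK3B (ENSG00000082701.14_2, chromosome 3, 119540170 to 119813264), the kinase, had 3.33 FPKM in the RIP, close to APC, but 0.980 in the input. Its ratio of 1.13, at percentile 66.7, was 3.40-fold in FPKM.

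The co-receptor genes had similar ratios from different levels. LRP5 (ENSG00000162337.11_1, chromosome 11, 68080077 to 68216743) had 3.30 FPKM in the input and 28.7 after CNBP precipitation, a ratio of 2.79 at percentile 93.6, and was second to CTNNB1 in level and in ratio. LRP6 (ENSG00000070018.8_1, chromosome 12, 12268959 to 12419946) had 0.126 FPKM in the input and 5.93 after CNBP precipitation, a ratio of 2.62 at percentile 92.1. LRP5 stood at 26.2 times the level of LRP6 in the input but at 4.84 times in the RIP. In FPKM without the added 1 the order turned, with LRP6 at 47.1-fold, the highest of the 10, and LRP5 at 8.70-fold.

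The receptor ubiquitin ligase genes, also a pair of relatives, had ratios that lay apart. RNF43 (ENSG00000108375.12_2, chromosome 17, 56429861 to 56494956) had 0.219 FPKM in the input and 6.30 after CNBP precipitation, a ratio of 2.58 at percentile 91.7. ZNRF3 (ENSG00000183579.15_2, chromosome 22, 29279580 to 29453475) had 0.743 FPKM in the input and 2.37 after CNBP precipitation, a ratio of 0.95 at percentile 63.4 and the lowest of the 10. RNF43 was thus at 0.295 times the level of ZNRF3 in the input and at 2.66 times in the RIP. The ratios were 1.63 apart on the log2 scale (3.10-fold), and 9.03-fold apart in FPKM without the added 1. RNF43 is one of the rows with an input below 0.5 FPKM and ZNRF3 is not.

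**Figure D3:**
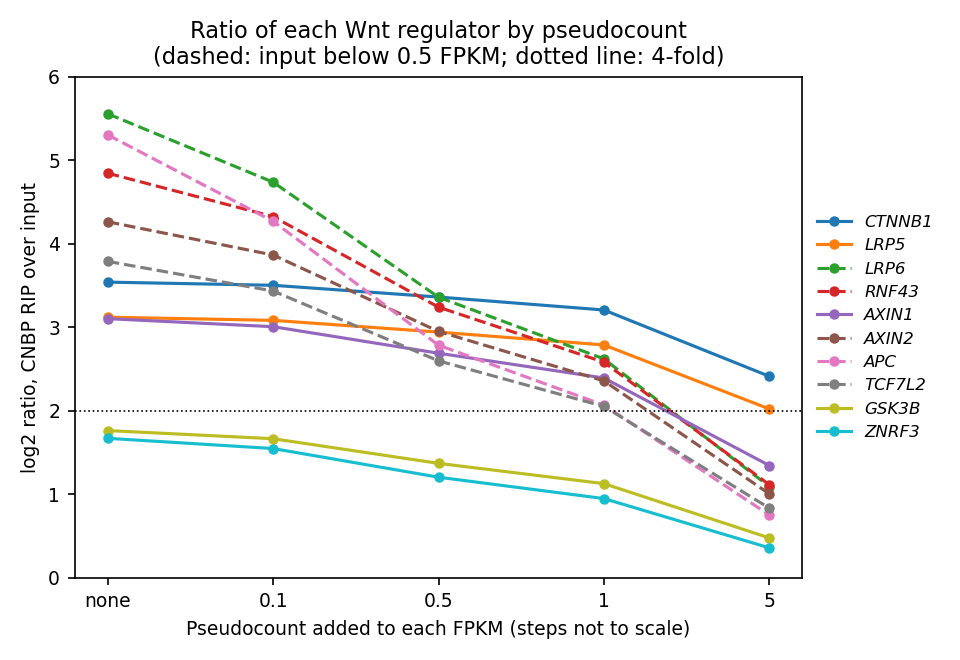
log2 ratio of CNBP RIP over input for each of the 10 Wnt regulators, by the amount added to each FPKM (steps not to scale), with dashed lines for genes below 0.5 FPKM in the input and a dotted line at 4-fold. LRP6 leads with nothing added (5.56) and CTNNB1 with 1 added (3.21), while GSK3B and ZNRF3 stay lowest under each amount plotted.

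The order of the ratios depended on the pseudocount. With nothing added, LRP6 (5.56), APC (5.31), RNF43 (4.85), AXIN2 (4.26) and TCF7L2 (3.79) came before CTNNB1 (3.54), and LRP5 (3.12) and AXIN1 (3.10) followed. The first 5 are the genes with an input below 0.5 FPKM. With 5 added, 2 of the 10 were at least 4-fold higher, CTNNB1 at 2.41 and LRP5 at 2.02, beside 3.09% of all rows. GSK3B and ZNRF3 were lowest whether 0, 0.1, 0.5, 1 or 5 was added.

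The scale of the libraries also enters, since the summed FPKM differed. After both libraries were rescaled to the mean of their sums, the median of all rows moved from 0.28 to 0.85, and 56.8% of rows were at least 1.5-fold higher. The 10 genes then lay between 1.53 (ZNRF3) and 4.06 (CTNNB1). Relative to the median of all rows, as deposited, the 10 lay between 0.67 and 2.92, with a median of 2.09.

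Across the table the ratio went with the span of the locus, that is, the length of chromosome between the ends of the gene. When the 8509 genes were split into 10 bins of span, the median ratio was -1.57 in the shortest bin and 1.55 in the longest. The share of genes that exceeded the input 4-fold or more was 30.4% in the longest bin and 8.70% in the shortest. All 10 Wnt regulators had loci longer than the median of all rows (29.8 kb), from 33.1 kb (AXIN2) to 273 kb (GSK3B), and 6 of them, LRP5, LRP6, APC, TCF7L2, GSK3B and ZNRF3, fell into the longest bin. Length of the mature mRNA is no column of the table, and its part in the ratios was not tested.

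Set against the median of its own bin, CTNNB1 remained highest at 2.34, the percentile within the bin being 95.4. AXIN2 followed at 2.14, RNF43 at 1.72 and AXIN1 at 1.53. LRP5 (1.24) and LRP6 (1.07) came next. APC (0.52) and TCF7L2 (0.50) were within 1.5-fold of the median of genes with such long loci. GSK3B (-0.42) and ZNRF3 (-0.60) were below it, at percentiles 34.8 and 30.9 of the bin, so their direction turned. On this scale 2 of the 10 reached 4-fold and 6 reached 1.5-fold, beside 11.5% and 36.1% of the 8509 genes. AXIN2, RNF43, LRP6, APC and TCF7L2, with inputs below 0.5 FPKM, averaged 1 FPKM only through the RIP. They therefore had to be higher in the RIP before centring. The bins mix such genes with genes that could have been lower.

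**Figure D4:**
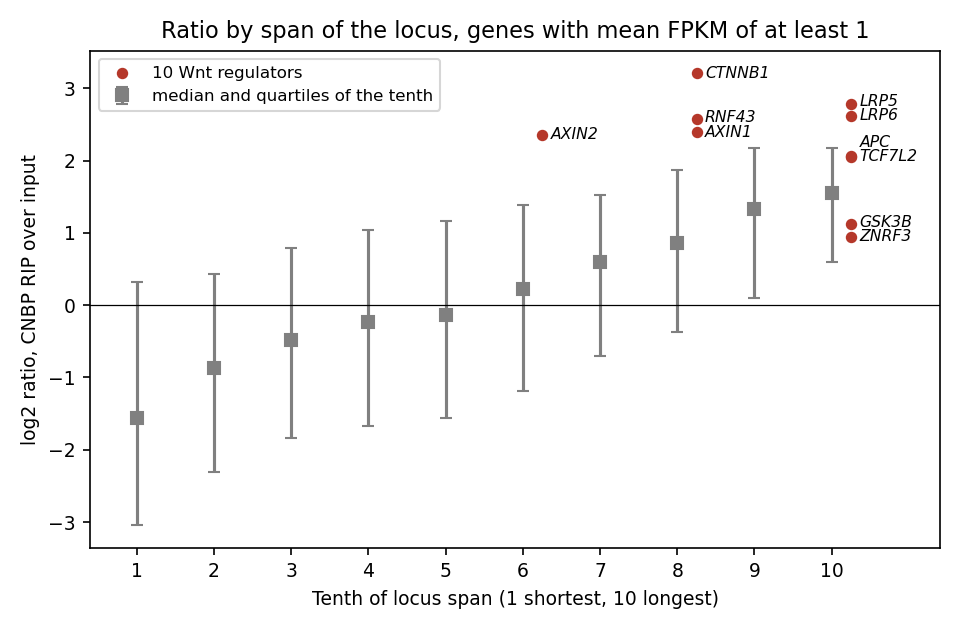
log2 ratio of CNBP RIP over input by bin of locus span, for 8509 genes averaging 1 FPKM or more. Grey squares are medians and bars run from the lower to the upper quartile of the bin, and red points are the 10 Wnt regulators. The medians run from -1.57 to 1.55, CTNNB1 (3.21) lies farthest above its bin, and GSK3B (1.13) and ZNRF3 (0.95) lie below the median of the longest bin.

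CNBP is known to prefer G-rich RNA with a GGAG core, and the study examined this motif at the start of CCND1 mRNA. The first 50 bases from each gene start of RefSeq (GRCh38.p14) were therefore searched for GGAG on the strand of the transcript. Starts were listed for 7 of the 10 genes, several having more than 1, and not for AXIN2, LRP6 and ZNRF3. Of 11 starts, 5 held the motif, in APC, CTNNB1, LRP5 and RNF43 (4 genes), beside 42.6% of the 12169 starts of genes in the expression table and 36.6% of all 35116 starts. The windows of 24 bases that hold the matches are shown so that the letters the study names can be seen in these mRNAs. Capitals mark GGAG.
CTNNB1, chr3:41199531-41199554, plus strand, bases 27 to 50: ttggcccggccccgGGAGcGGAGa
LRP5, chr11:68312617-68312640, plus strand, bases 27 to 50: ggGGAGgcGGAGgcgccgGGAGcc
APC, first start, chr5:112707521-112707544, plus strand, bases 24 to 47: acaagatggcGGAGggcaagtagc
APC, second start, chr5:112737885-112737908, plus strand, bases 1 to 24: actGGAGacagaatGGAGgtgctg
RNF43, chr17:58417511-58417534, minus strand, bases 1 to 24: gGGAGttgatccagaattgtcttt
LRP5 had 3 matches, CTNNB1 and the second start of APC 2 each, and the first start of APC and this start of RNF43 1 each, while another RNF43 start had 0. The share of starts with the motif, 45.5%, was near that of the expression table. GGAG on the other strand, which reads CTCC in these bases, was in 36.4% of the 11 starts. Its share was 30.5% for starts of the expression table and 29.6% for all starts. No GGAG was found on the transcript strand in the window of AXIN1, GSK3B or TCF7L2. Of these, AXIN1 and TCF7L2 were past 4-fold in ratio. A match is a description of these letters and not a binding site, and most of each mRNA was not searched.

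Other genes of the pathway, taken from 7 lists of 126 distinct genes, were set beside the 10. A total of 85 were in the table, of which 53 exceeded the input 1.5-fold or more and 17 of these 4-fold or more, beside 42.6% and 12.5% of all rows. In the other direction 10 were lower by 1.5-fold and 2 by 4-fold, beside 34.7% and 13.5% of all rows. The median ratio of the 85 was 0.91, beside 0.28 for all rows. Of the 85, 29 had an input below 0.5 FPKM and so had to be higher in the RIP to be listed. Of the ligand list, which covers Wnts, their secretion factors and R-spondins, 12 of 25 genes were in the table, with a median of 0.46. By 1.5-fold 5 of them were above the input and 2 below, beside 42.6% and 34.7% of all rows. Of the 12, 5 had an input below 0.5 FPKM and so had to be higher in the RIP to be listed. The 2 below, WNT3A and WNT10A, were listed at 0 in the RIP. WNT10B (5.80 FPKM in the RIP, 3.06 in the input, ratio 0.74) and WNT7B (0.69) were highest among those averaging 1 FPKM or more and above 0 in both libraries, the genes to which highest and lowest refer in each list. WNT6 (-0.20) and PORCN (-0.55), the enzyme that acylates Wnts, were the lowest of these.

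Of 18 receptors and co-receptors 12 were in the table, with a median of 1.5. By 1.5-fold 11 of them exceeded the input and by 4-fold 3, beside 42.6% and 12.5% of all rows. Of the 12, 9 had an input below 0.5 FPKM and so had to be higher in the RIP to be listed. Among all rows with such an input, 85.1% reached 1.5-fold and 21.4% reached 4-fold. PTK7, a pseudokinase co-receptor, had 1.89 FPKM in the input and 27.8 after CNBP precipitation, a ratio of 3.32. FZD1 was at 2.73, and FZD2 was listed at 0 in the input beside 13.1 FPKM in the precipitate. FZD9 (1.19) and RYK (0.85) were the lowest of those averaging 1 FPKM or more. FZD7 was listed at 0 in the RIP with 0.726 FPKM in the input.

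Of 8 genes for Dishevelled and the casein kinases that act at the receptor, 7 were in the table, with a median of 1.18. By 1.5-fold 4 exceeded the input, beside 42.6% of all rows. CSNK1G2 (1.45) and DVL2 (1.28) were highest, and CSNK1E (0.20) and CSNK1D (-0.19) lowest. DVL1 was the most abundant of them, at 20.6 FPKM in the input and 47.9 in the precipitate.

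All 17 listed partners of the destruction complex and of beta-catenin turnover were in the table, with a median of 1.01. By 1.5-fold 11 exceeded the input, 3 of them by 4-fold, and 2 were lower by 4-fold, beside 42.6%, 12.5% and 13.5% of all rows. Of the 17, 7 had an input below 0.5 FPKM, USP34 among them, and so had to be higher in the RIP to be listed. USP34, a deubiquitinase that acts on axin, was at 3.18 (9.62 FPKM in the RIP, 0.174 in the input), and USP7 at 2.24. Parts of the SCF ubiquitin ligase that degrades beta-catenin lay on both sides. CUL1, its scaffold, was at 1.11, and the beta-catenin binding subunits BTRC and FBXW11 were at 0.70 and 0.57. SKP1, its adaptor, had 20.9 FPKM in the input and 1.27 after CNBP precipitation, a ratio of -3.27, and RBX1, its RING subunit, was listed at 0 in the RIP with 27.1 FPKM in the input. PPP2R1A, a phosphatase scaffold, was at -0.37.

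Nuclear partners of beta-catenin and TCF spread widely. Of 24 genes 20 were in the table, with a median of 1.09. By 1.5-fold 11 exceeded the input, 7 of them by 4-fold, and 2 were lower by 1.5-fold, beside 42.6%, 12.5% and 34.7% of all rows. Of the 20, 4 had an input below 0.5 FPKM and so had to be higher in the RIP to be listed. TLE3, CREBBP and EP300, all past 4-fold, were among them. BCL9L, a co-activator that binds beta-catenin, had 0.5 FPKM in the input and 12.9 after CNBP precipitation, a ratio of 3.21, and SMARCA4 was at 3.16. RUVBL2 (-0.94) and AES (-1.59), a short member of the Groucho family of TCF co-repressors, were lowest.

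Of 19 inhibitors 6 were in the table, with a median of 0.90. NKD1, which binds Dishevelled, was at 2.10 and KREMEN1, a receptor for Dickkopf proteins, at 1.88. NKD2 was at 0.47, and DKK1, a secreted inhibitor that binds LRP5 and LRP6, had 48.6 FPKM in the input and 29.3 after CNBP precipitation, a ratio of -0.71. Of 20 intestinal targets of beta-catenin 14 were in the table, with a median of 0.98. By 1.5-fold 9 exceeded the input, 4 of them by 4-fold, and 2 were lower by 1.5-fold, beside 42.6%, 12.5% and 34.7% of all rows. Of the 14, 3 had an input below 0.5 FPKM, SOX9 and NKD1 among them, and so had to be higher in the RIP to be listed. SOX9 (4.46) and SOX4 (3.35) were highest, and CD44 (0.14) and FOSL1 (-0.78) were the lowest of those present in both and averaging 1 FPKM or more.

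**Figure D5:**
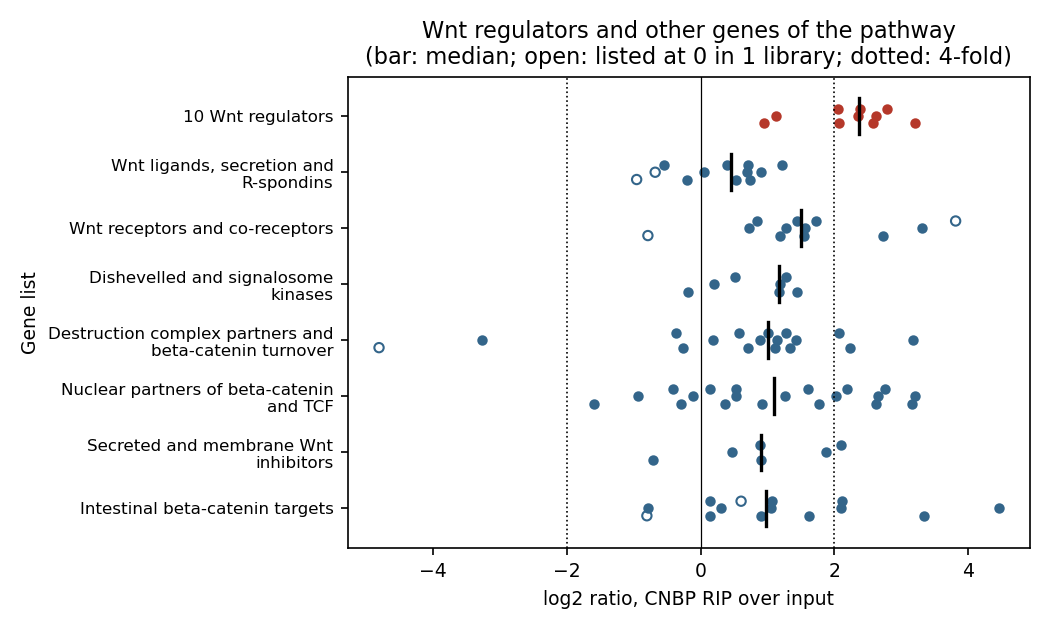
log2 ratio of CNBP RIP over input for the 10 Wnt regulators (red) and for the genes of 7 other pathway lists that were in the table (blue), with a bar at each median and dotted lines at 4-fold. Open points are genes listed at 0 in 1 library, whose place depends on the added 1. The 10 regulators have a median of 2.38, the lists run from 0.46 (ligands) to 1.5 (receptors), and RBX1 and SKP1 lie farthest left.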

How the data were processed

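The authors deposited 1 table of FPKM per protein-coding gene for the RIP and the input library (HCT116, hg19). Tools named in the submitters' processing notes are HISAT2, StringTie, cutadapt and FastQC, without versions or roles, and use of strand in counting is not stated. All rows had at least 0.5 FPKM in at least 1 library. FPKM keep no depth that could be used here, so no interval is given.

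Ratios were log2(RIP FPKM + 1) - log2(input FPKM + 1), after the formula of the study, which understates the change of low genes. They were counted at 2 and at 0.58 as rules of size, without a test, there being 1 library on each side. Percentiles refer to 8509 genes averaging 1 FPKM or more, which were also split into 10 bins of locus span. Those with an input below 0.5 FPKM reached this average only through the RIP. The 10 genes and 7 lists were chosen with earlier results of these data known. Genes named were the 10, CCND1, the 2 highest and 2 lowest of each list that averaged 1 FPKM or more and were above 0 in both libraries, genes listed at 0 in 1 library with at least 5 FPKM in the other, and the 3 nearest to CTNNB1. DVL1, FZD7, CUL1, BTRC, FBXW11, GSK3A, CSNK1A1, AMER1 and APC2 were named after their values were seen. Alternatives were other pseudocounts, rescaling, centring and filters on low values. The computation of the ratio and the bins was checked on data simulated without noise, which does not bear on counting error at low FPKM. Python 3.11.15 with pandas 2.3.3 and numpy 2.4.6 was used.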

Additional observations from a re-analysis of the deposited data

How the results depend on the processing

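Pseudocounts and filters cannot turn the sign of a ratio, and both rescalings raised the ratios of the 10, which were already above 0. Of the settings that could turn it, centring on all rows turned none of the 10, and centring by span turned GSK3B (-0.42) and ZNRF3 (-0.60), which were below the median of genes of like locus span. The cause was not tested. On that scale the median of the 10 was 1.16, with 2 past 4-fold and 6 past 1.5-fold, beside 11.5% and 36.1% of 8509 genes. Lower by 1.5-fold was 1 gene, ZNRF3, and the share of all genes that were lower was not computed. The 10 include the 5 genes with an input below 0.5 FPKM, which had to be higher in the RIP before centring. The median of the 10 was 3.47 with a pseudocount of 0.1, 2.86 with 0.5, 1.05 with 5 (2 genes at least 4-fold higher, beside 3.09% of all rows) and 3.67 with none, the last chosen after seeing the data. The median of all rows moved as well, to 0.43, 0.35, 0.11 and 0.77 in turn. The last was over 9605 rows above 0 in both libraries. With 0.1, 0.5 and none, 8 genes were at least 4-fold higher, beside 27.9%, 17.6% and 32.6% of rows. The median of the 10 was 3.03 after rescaling to the mean of the sums, 4.24 after rescaling to 1000000 and 2.09 when centred on all rows. Beside these the median of all rows was 0.85, 1.30 and 0. At least 4-fold higher were 8, 10 and 6 genes, beside 22.6%, 39.4% and 9.1% of rows. Filters change the genes counted. With at least 1 FPKM in both libraries, 3 genes were left, all 3 past 4-fold, with a median of 2.79, beside 10.6% of 5521 rows and a median of -0.10. With at least 0.5 FPKM in the input, chosen after seeing the data, 5 were left, 3 at least 4-fold and 5 at least 1.5-fold higher, with a median of 2.39, beside 9.94% and 30.6% of 8444 rows. Centring by protein length was not run, as no such lengths were used here. No paired analysis was possible because there was 1 library per group. The depth is unknown, so how far counting error limits the input values under 0.5 FPKM cannot be given.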

Other observations

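Other kinases and scaffolds of the destruction complex were looked at after the values of the 10 genes were seen, and are given as values. GSK3A, the paralog of GSK3B, had 13.4 FPKM in the input and 10.97 after CNBP precipitation, a log2 ratio of -0.26, and CSNK1A1, the casein kinase that primes beta-catenin for GSK3B, had 5.43 FPKM in the input and 6.30 after CNBP precipitation, a ratio of 0.18. The scaffold genes AMER1 (1.86 FPKM in the RIP, 0.0649 in the input, ratio 1.42) and APC2 (1.20 FPKM in the RIP, 0.0930 in the input, ratio 1.01) were higher in the RIP, and both had an input below 0.5 FPKM, so that they had to be higher to be listed. No test of the difference between kinases and scaffolds was possible with 1 library per group.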
